A study of Mus musculus with 10 samples.

Results

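The 9 genes described here are among the homeostatic genes of microglia, those that these resident macrophages of the brain use at rest. They were chosen by symbol, 9 of the 33502 gene symbols of the count matrix: the receptors *Cx3cr1*, *P2ry12* and *Csf1r*, the complement genes *C1qa*, *C1qb* and *C1qc*, and the surface proteins *Tmem119*, *Trem2* and *Selplg*. For each gene, unique molecular identifiers (UMIs, each a captured RNA molecule) were summed per library and cell type of the deposited annotation, and detection of pairs of these genes was counted in single microglia nuclei. The libraries came from fresh punches of the paraventricular thalamus (PVT), a midline nucleus of the brain, of C57BL/6J mice aged 12 weeks, for which the labels name no treatment or transgene. The 10 libraries comprised 6 labelled female and 4 whose labels give no sex and whose nuclei are recorded as male in the deposited metadata, called male here. By the methods, each of 4 biological replicates was a pool of 4 mice, and no pool size is given for the other libraries. The p-values thus measure the spread between libraries, which are pools where stated. Of 20503 nuclei, 993 were named microglia, 600 in male and 393 in female libraries.

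Microglia survey the tissue with moving processes, clear debris and prune synapses. Signals from neighbouring cells reach them through receptors: neurons present the chemokine Cx3cl1 to Cx3cr1, and Csf1 and Il34 keep the cells alive through Csf1r. On damage, ADP from injured cells draws their processes through P2ry12. C1qa, C1qb and C1qc are the chains of C1q, which starts the classical complement cascade, and Trem2 senses lipids and signals through the adaptor Tyrobp. Tmem119 is a membrane protein used as a microglia marker, and Selplg is the ligand of P-selectin.

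Of these genes, the C1q genes share a locus. *C1qb*, *C1qc* and *C1qa* lie in this order on the minus strand of chromosome 4 (GRCm38), at chr4:136880129-136886187, chr4:136889804-136893065 and chr4:136895917-136898803 (GENCODE vM21), with 3617 bp and 2852 bp between neighbours. *Tmem119* (chr5:113793729-113800516) and *Selplg* (chr5:113818536-113832644) are 18020 bp apart, while the other members stand alone on chromosomes 9 (*Cx3cr1*), 3 (*P2ry12*), 18 (*Csf1r*) and 17 (*Trem2*). RefSeq promoters of GRCm38.p6 (250 bases before to 50 after a start site given by RefSeq) were matched for 5 of the 9 genes. Both strands were searched for GAGGAA, the core of the site of PU.1, a transcription factor of myeloid cells. A second search was for TGANTCA, a loose form of the AP-1 site with any base (N) in the middle. As a pattern it reads alike on both strands. GAGGAA was found in the promoters of *C1qb*, *C1qc* and *Trem2*, 3 of 5, and in 28.3% of 32851 promoters of the same length. TGANTCA was found in that of *Trem2* alone, as TGAATCA, and in 7.81% of all promoters, while the promoters of *Cx3cr1* and *P2ry12* held neither. The 3 promoters with a match are shown. They are printed 5′ to 3′ on the strand of the gene, with matches in capitals (TTCCTC is GAGGAA on the other strand), at chr4:136886151-136886450 on the minus strand, chr4:136892865-136893164 on the minus strand and chr17:48346151-48346450 on the plus strand.
C1qb: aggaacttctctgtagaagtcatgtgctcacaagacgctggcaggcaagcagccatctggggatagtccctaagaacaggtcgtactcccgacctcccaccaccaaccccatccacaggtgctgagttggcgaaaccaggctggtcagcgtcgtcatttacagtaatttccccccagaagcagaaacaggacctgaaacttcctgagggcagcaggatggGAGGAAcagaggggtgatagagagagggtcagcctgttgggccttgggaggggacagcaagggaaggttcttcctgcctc
C1qc: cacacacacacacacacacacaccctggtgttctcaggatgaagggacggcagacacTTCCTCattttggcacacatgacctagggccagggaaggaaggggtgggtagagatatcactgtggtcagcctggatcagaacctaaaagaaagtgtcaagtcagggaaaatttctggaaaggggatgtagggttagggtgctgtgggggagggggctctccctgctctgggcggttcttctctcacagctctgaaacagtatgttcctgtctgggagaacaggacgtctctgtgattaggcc
Trem2: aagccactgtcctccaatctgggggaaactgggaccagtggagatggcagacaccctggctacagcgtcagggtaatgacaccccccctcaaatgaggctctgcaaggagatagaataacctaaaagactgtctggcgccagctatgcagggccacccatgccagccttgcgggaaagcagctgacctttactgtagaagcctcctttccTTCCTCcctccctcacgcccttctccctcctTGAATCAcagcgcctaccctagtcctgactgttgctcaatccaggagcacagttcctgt
The match in *C1qb* starts at base -30 from the start site of its window, that in *C1qc* at -193 and that in *Trem2* at -40. The window of *C1qc* is set on a start inside the gene as RefSeq lists it, so its position is not counted from the outer end of the gene. A match describes these letters only, and binding was not measured.

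The libraries differed in several measures that run through the results below. The male libraries held 27 to 348 microglia nuclei and the female libraries 55 to 82, with median depths per library of 1774 to 4348.5 UMIs in male and 1466 to 2741.5 UMIs in female microglia. The median mitochondrial percent of microglia nuclei was 0.333, 1.77, 0.519 and 0.960 in male libraries 1 to 4 and 1.23 to 1.94 in the female libraries, so that male library 2 lay within the female range. The percent is the authors' own, and the matrix holds no UMIs of mitochondrial genes in male nuclei. *Xist* and the Y-linked *Uty* went with the recorded sex in all 10 libraries, male library 2 included (3 UMIs of *Xist* and 971 of *Uty*). Genes were counted differently in the groups: 1937 genes with at least 20 UMIs in male nuclei had none in female nuclei, and 649 the reverse. All 9 members were counted in both. Nuclei with 3 or more markers of another cell type made up 333 of the 993 microglia nuclei (33.5%), most often markers of neurons (7.81% to 47.1% of nuclei in male and 1.75% to 19.5% in female libraries). Of all barcodes, 46 occurred in more than 1 library, and none of these was a microglia nucleus in 2 libraries.

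All 9 genes were highest in microglia in every library, and this held for 3.61% of 17513 genes with enough UMIs. Since *Cx3cr1* named the cluster in the study and clustering used the genes themselves, this is a description of the annotation and not a test. The 6 fixed microglia markers, of which *Cx3cr1* and *Csf1r* are members, summed to 11055 ± 2860 counts per 1000000 (CPM, a gene's UMIs scaled to a fixed total of the library's UMIs in that cell type; SD, n = 10) in microglia and to at most 224 on average in any other type. The C1q genes and *Trem2* had low levels elsewhere. In neurons, *C1qa* had 2.74 CPM against 2723 ± 1748 (SD, n = 10) in microglia, and *Trem2* had 0.681 against 852 ± 479 (SD, n = 10). Between 82.4% and 98.6% of all *Csf1r* UMIs of a library lay in microglia nuclei, which held 0.794% to 3.89% of its UMIs.

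Below microglia, the order of the cell types was mostly within the spread between libraries. For each gene the gap from microglia to the next type exceeded the larger of both SDs. Among the further neighbours in the order, that held for *Selplg*, which had 5.06 ± 1.13 CPM in neurons (SD, n = 10) ahead of 2.16 in ependymal cells. It also held for *Tmem119* between neurons (0.320) and endothelial cells (0), but that gap lies at the floor. Endothelial sums held at most 184643 UMIs per library, too few to resolve 0.320 CPM. In female endothelial nuclei, 1 UMI of *Tmem119* was found, in a library with too few nuclei to enter. *Tmem119* came second in fibroblasts, with 33.8 ± 35.4 CPM (SD, n = 8 libraries) from only 16 UMIs.

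*P2ry12* and *Cx3cr1* had the most signal outside microglia. *P2ry12* reached 59.8 ± 21.0 CPM in neurons and 37.3 in oligodendrocyte precursor cells (OPCs), and of its UMIs 3236 lay in microglia and 7959 in other nuclei. Its gene lies inside *Med12l*, a Mediator subunit gene on the opposite strand, which had 264 CPM in microglia, 246 in neurons and 187 in OPCs. *Cx3cr1* reached 55.9 ± 42.1 CPM in ependymal cells (SD, n = 9) and 156 in the highest library. There the other receptors *P2ry12* and *Csf1r* had 12.6 and 4.32. RefSeq gives *Cx3cr1* a length of 19.6 kb, while GENCODE vM21 draws it over 168 kb across 9 other genes. Among these, *Ttc21a*, a gene of cilia on the opposite strand, was chosen after its values were seen. It had 454 CPM in ependymal cells and at most 3.78 in neurons, astrocytes, oligodendrocytes, OPCs and microglia. On the strand of *Cx3cr1*, *Gorasp1*, *Csrnp1* and *Xirp1* had 2.86, 0.209 and 0 CPM in ependymal cells. The sources used here do not name the annotation that the authors counted with. The part of overlapping genes in these values was not tested.

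**Figure D1:**
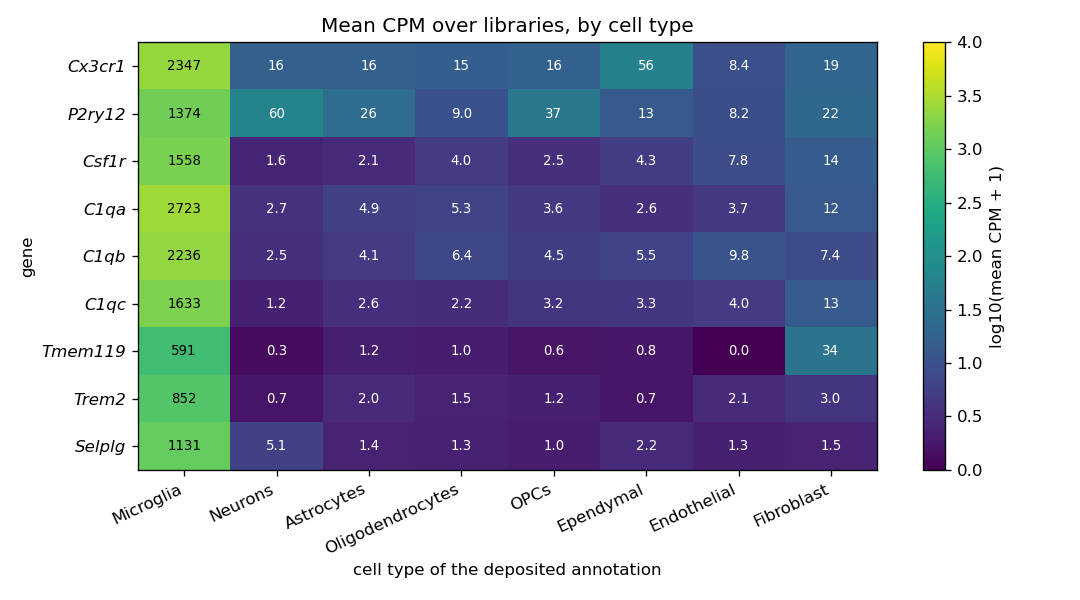
Mean CPM over the libraries with at least 10 nuclei of each cell type (columns) for each of the 9 genes (rows), with colour as log10(mean CPM + 1). The microglia column stands above all others, and the next levels are those of P2ry12 in neurons (59.8 CPM) and of Cx3cr1 in ependymal cells (55.9 CPM).

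Within microglia, the female libraries lay close together while the male libraries split. *Cx3cr1* had 765, 3592, 1019 and 833 CPM in male libraries 1 to 4, and 2303, 2931 and 3313 CPM as the lowest, median and highest of the 6 female libraries. Male library 2 lay above every female library and the other 3 male libraries below all of them. *P2ry12* had 624.6, 1707, 1008 and 636 CPM in male libraries and 1263, 1688 and 1858 CPM in female libraries. *Csf1r*, the receptor that microglia need to survive, had 958, 1947, 1168 and 882 CPM in male and 1473, 1743 and 2207 CPM in female libraries. For both genes male library 2 fell within the female range and the others below it.

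The C1q genes had the widest range. *C1qa* had 140, 3279, 473 and 290 CPM in male libraries 1 to 4 and 3271, 3617 and 4989 CPM as the lowest, median and highest female values. *C1qb* had 291, 2582, 612 and 344 CPM in male and 2635, 2871 and 3672 CPM in female libraries. *C1qc* had 172, 2108, 554 and 254 CPM in male and 1864, 2269 and 2577 CPM in female libraries. Male libraries 1, 3 and 4 were again below every female library for each chain, and male library 2 lay inside the female range for *C1qa* and *C1qc* and just under it for *C1qb*. The chains did not keep 1 ratio: *C1qa* made up 23.2%, 41.1%, 28.9% and 32.7% of the C1q UMIs of male libraries 1 to 4, and 40.0% to 45.6% in female libraries. In male library 1 that share rests on 13 UMIs of *C1qa*.

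Of the surface proteins, *Trem2* had 118, 919, 322 and 167 CPM in male and 936, 1180 and 1439 CPM in female libraries. *Tmem119* had 162, 948, 338 and 230 CPM in male and 512, 700 and 872 CPM in female libraries. *Selplg* had 883, 1579, 977 and 555 CPM in male and 936, 1239 and 1416 CPM in female libraries. *Trem2* did not overlap between the groups, *Tmem119* overlapped through male library 2 alone, and *Selplg* overlapped through male libraries 2 and 3. All female libraries lay above all male libraries for *C1qb* and *Trem2*, 2 of 9 members, and for 4.42% of the 4910 genes tested. The groups did not overlap, in either direction, for 8.19% of genes.

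**Figure D2:**
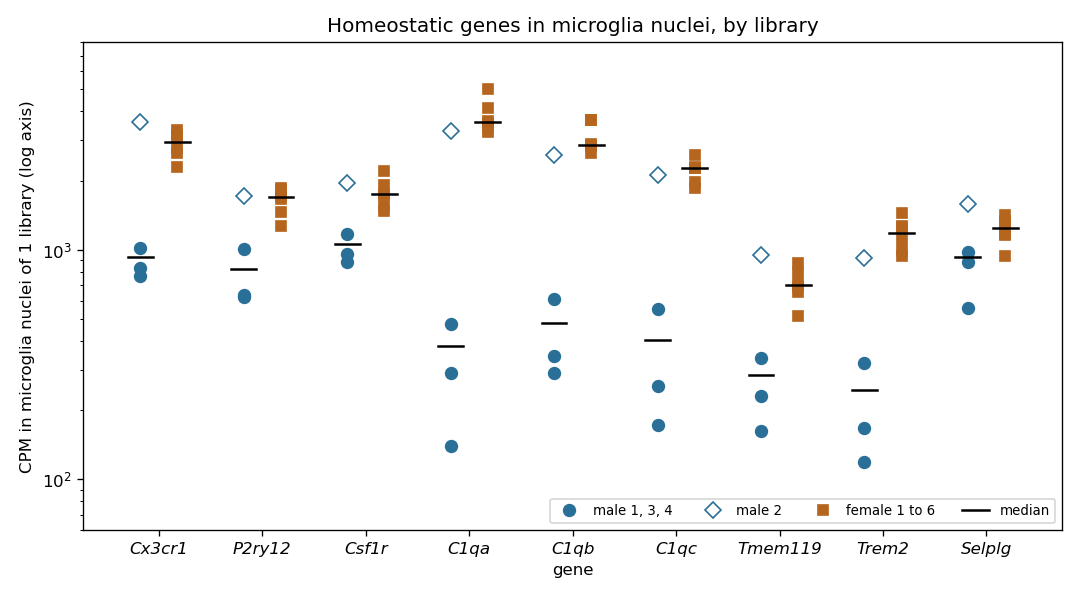
CPM (log axis) of each gene in the microglia nuclei of single libraries, with male libraries 1, 3 and 4 as circles, male library 2 as an open diamond, female libraries as squares and group medians as black lines. Male library 2 sits within or next to the female range for all 9 genes, and for C1qa the other male libraries (140 to 473 CPM) are far below the lowest female library (3271 CPM).

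The comparison of female with male libraries was fitted on all genes with edgeR. All 9 members had estimates above 0, with a median of 0.89 on the log2 scale. Of all 4910 genes tested, 2155 were above 0, and the median was -0.06. At an adjusted p under 0.05, 1 of 9 members passed, while 6.99% of all genes passed in either direction and 4.01% were higher in female libraries. That member was *Trem2*, higher in female libraries by 1.59 ± 0.44 (log2, SE) with edgeR's adjusted p of 0.0483. Its call was lost when any single library other than male library 2 was left out (edgeR's adjusted p 0.0725 to 0.156), and it was not past the threshold among genes counted in both groups (0.0972). *C1qa* had the largest estimate, 1.87 ± 0.67 (adjusted p 0.124), then *C1qb* with 1.69 ± 0.51 (0.0722) and *C1qc* with 1.51 ± 0.54 (0.122), all by edgeR. The receptors had smaller ones: 0.89 ± 0.38 for *Cx3cr1*, 0.71 ± 0.26 for *P2ry12* and 0.51 ± 0.21 for *Csf1r* (edgeR's adjusted p 0.192, 0.129 and 0.176). *Tmem119* had 0.74 ± 0.39 and *Selplg* 0.30 ± 0.23 (0.279 and 0.492). At an unadjusted p under 0.05, 1106 of the 4910 genes passed. In the fit of genes counted in both groups, 0 of 9 members had an adjusted p under 0.05 by edgeR. There 94 of 4743 genes did, 57 of them higher in female libraries.

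The number of members called moved with the settings and was highest when male library 2 was left out. Each library was left out in turn, but this one is singled out by its values of these same genes. The counts without it are thus a description and not a test. Without it, all 9 members were higher in female libraries at an adjusted p under 0.05 by edgeR, against 24.7% of 4342 genes in either direction and 13.6% higher. The estimates then ran from 0.65 for *Selplg* to 3.63 for *C1qa*, with 2.90 for *C1qb*, 2.74 for *C1qc*, 2.49 for *Trem2* and 1.75 for *Cx3cr1*. Leaving male library 2 out also gave more genes called in other cell types: 3959 against 2316 in neurons and 3008 against 1375 in astrocytes. With the median mitochondrial percent of each library's microglia as a covariate, an alternative chosen after seeing the data, no member passed in edgeR, while 4.89% of genes did. *C1qa* was then 1.32 and *Selplg* -0.00. Among nuclei under 1% mitochondrial transcripts, where male library 2 had too few to enter, *Cx3cr1*, *Tmem119*, *Trem2* and all C1q genes passed, 6 of 9, against 9.01% of 1132 genes. Without nuclei that carried markers of another cell type, *P2ry12*, *Trem2* and all C1q genes passed, 5 of 9, against 10.4% of 3815 genes. With no filter 6 of 9 passed (8.37% of genes), with thinned nuclei 2 (8.00%), with nuclei at 1% or more 1 (5.78%) and with the replicate number as a block, over 8 libraries, none (3.18%). The estimates under the block were larger, with a median of 1.17 and 1.95 for *Trem2*. Median depths of the groups overlapped, and in nuclei thinned to 1000 UMIs *Trem2* was at 1.40, *C1qb* at 1.67 and *C1qa* at 1.75. Recorded sex, set of libraries and gene annotation cannot be told apart in this design.

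**Figure D3:**
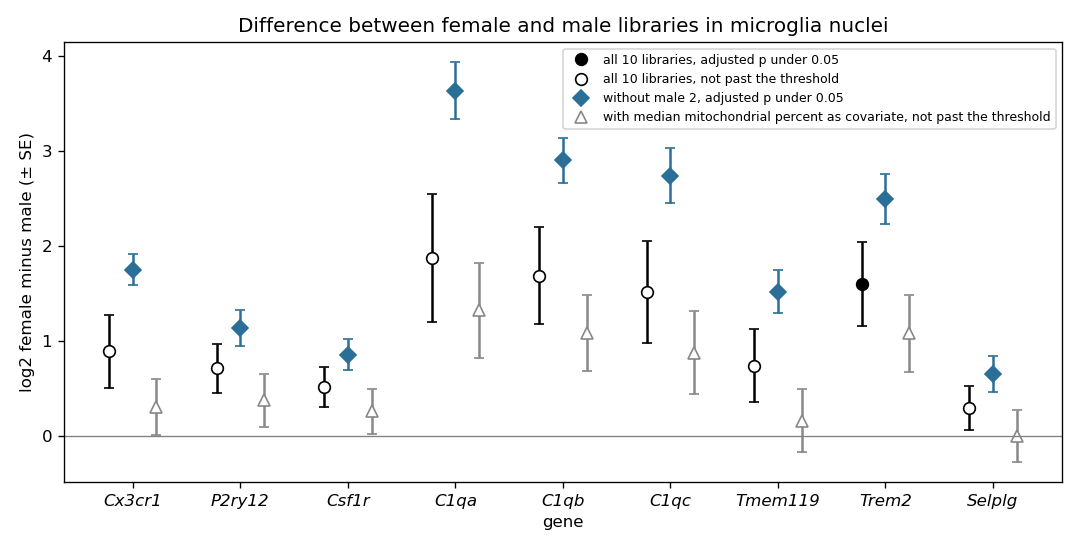
Log2 difference of female minus male libraries in microglia nuclei (edgeR, bars are SE) for each gene with all 10 libraries, without male library 2, and with the median mitochondrial percent as a covariate. Filled symbols are past an adjusted p of 0.05: Trem2 alone with all libraries, all 9 genes without male library 2, and none with the covariate. Male library 2 and the covariate were singled out after the values were seen.

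Since male library 2 stood apart from the 3 other male libraries, it was set against their pooled nuclei, as a description of 1 library. It had 9.54 times their CPM of *C1qa*, 5.98 times for *C1qc*, 5.96 times for *C1qb*, 4.23 times for *Trem2*, 4.02 times for *Cx3cr1* and 3.60 times for *Tmem119*. For *P2ry12*, *Selplg* and *Csf1r* the ratio was 2.23, 2.18 and 1.97. Gene length moved with this in part. The members with the 4 highest ratios are short genes, with RefSeq lengths of 2.93 kb for *C1qa*, 3.14 kb for *C1qc*, 5.88 kb for *Trem2* and 6.08 kb for *C1qb*, but the order did not hold throughout. *Tmem119* (6.67 kb) had a lower ratio than *Cx3cr1* (19.6 kb), and *Selplg* (14.7 kb) and *Csf1r* (25.6 kb) had lower ones than *P2ry12* (46.7 kb). Over all genes the median log2 difference of male library 2 from the other male libraries was 0.82 for 583 genes up to 10 kb and 0.27 for 1055 genes of 10 to 30 kb. It was -0.01 for 1789 genes of 30 to 100 kb and -0.33 for 1250 genes over 100 kb. The female minus male estimates followed the same bins, with medians of 0.58, 0.15, -0.10 and -0.28. They were above 0 for 80.6%, 64.5%, 36.4% and 19.0% of the genes in these bins. The members thus lay above the median of their own bins, and the part of gene length in their values was not tested.

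Mitochondrial percent moved with part of the members inside libraries too. The same counts were not taken over all genes, so no background share stands beside them. In the 8 libraries with at least 10 microglia nuclei on either side of 1% mitochondrial transcripts, *Cx3cr1* and *Tmem119* had a higher CPM in nuclei at or above 1% in 8 of 8. The median ratio was 1.32 for *Tmem119* but only 1.05 for *Cx3cr1*, the smallest of the 9 genes. *C1qa*, *C1qb* and *Trem2* did so in 7 of 8, with median ratios of 1.41, 1.30 and 1.51. *C1qc* did in 6 of 8, and *P2ry12*, *Csf1r* and *Selplg* in 5 of 8. The median ratios of all 9 genes ran from 1.05 to 1.51. Among nuclei at or above 1%, male libraries 3 and 4 had 1087 and 317 CPM of *C1qa* (14 and 162 nuclei) while male library 2 had 3355 (61 nuclei) and the lowest female library 3550. The part of mitochondrial percent in the levels of male library 2 was not tested beyond the fits above.

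Most microglia nuclei held UMIs of most of the 9 genes. The mean share of nuclei with a UMI over libraries ran from 63.4% ± 14.5 for *Tmem119* (SD, n = 10) to 93.8% ± 4.97 for *Csf1r*. In oligodendrocytes, which should lack these genes and had a median depth of 2321 UMIs against 2168 in microglia, the shares ran from 0.291% for *Selplg* to 3.98% for *Cx3cr1*. The lowest share in microglia was that of *Trem2* in male library 4, 31.6%, well above this background. *C1qa* was detected in 60.2% ± 26.2 of nuclei in male (SD, n = 4) and 86.7% ± 3.25 in female libraries (SD, n = 6), and *Csf1r* in 93.8% ± 7.94 and 93.8% ± 2.59. After each nucleus was thinned to 1000 UMIs, which kept 950 of the 993 nuclei, the shares of *C1qa* were 39.1% ± 23.7 in male and 77.2% ± 5.51 in female libraries. The shares of *Csf1r* were then 72.3% ± 8.13 and 79.1% ± 8.26, a gap within the spread between libraries.

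Counted per nucleus, the microglia nuclei held a median of 7 of the 9 genes. Of the 993 nuclei, 908 (91.4%) held 4 or more and 252 (25.4%) held all 9. In neurons, with a median depth of 11157 UMIs, 25 of 10410 nuclei (0.240%) held 4 or more. All 9 genes were found in 52 of 64 nuclei of male library 2 (81.2%), in 3.7%, 13.7% and 1.44% of the nuclei of male libraries 1, 3 and 4, and in 29.1% to 50% of the nuclei of female libraries. Male library 2 also had the deepest microglia nuclei, and these shares were not adjusted for depth.

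**Figure D4:**
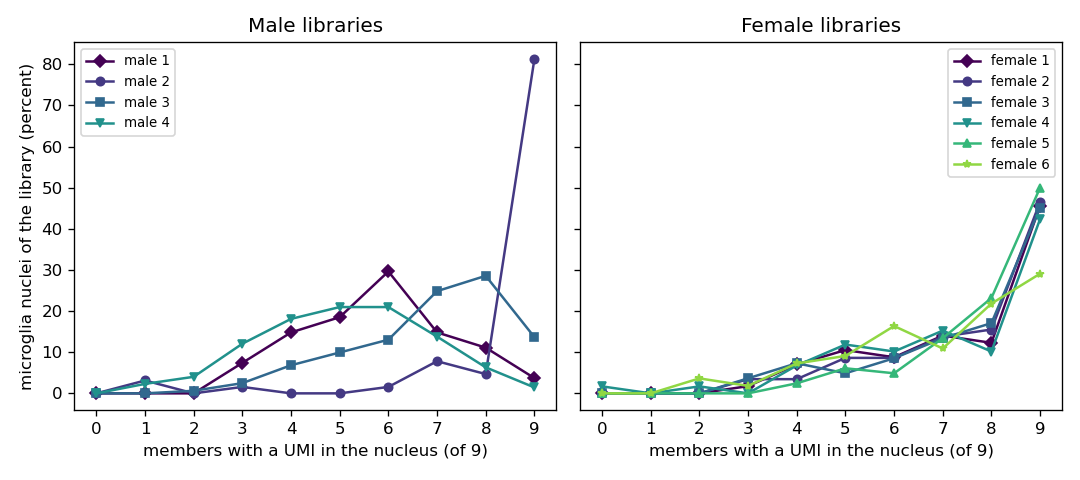
Percent of the microglia nuclei of each library (vertical axis) by the number of the 9 genes with at least 1 UMI (horizontal axis), male libraries on the left and female libraries on the right. Female libraries and male library 2 peak at 9 genes, while male library 1 peaks at 6 genes, male library 3 at 8 and male library 4 at 5 and 6.

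Co-detection asked whether a nucleus with 1 gene was more likely to hold another of the set, at a given depth and within a library. For each of 36 pairs, an odds ratio was combined over 5 depth strata per library by the Mantel-Haenszel method. It was above 1 in 31 of 36 pairs, with a median of 1.41 and a range of 0.897 to 2.36. Pairs of other genes were not scored, so whether these values are particular to the set was not tested. The pairs among the C1q chains had the highest values as a group: 2.36 for *C1qa* with *C1qc*, 2.27 for *C1qa* with *C1qb* and 1.91 for *C1qb* with *C1qc*, above 1 in 8 of 9, 8 of 9 and 9 of 9 libraries with a value. *Trem2* with *Selplg* had 2.02 (9 of 9 libraries) and *Cx3cr1* with *Tmem119* had 1.98 (5 of 8). The lowest were *P2ry12* with *C1qa* at 0.897 (above 1 in 3 of 10 libraries) and *C1qb* with *Selplg* at 0.914, values near 1 in sparse counts that give no order. Male library 4, with 348 of the 993 nuclei, weighed most: without it the median was 1.91 and the C1q pairs were at 2.88 to 3.13. In each library taken alone, the median of the pairs with a value was above 1 (1.10 to 4.50), over 21 pairs in male library 2, which gave the highest, and 26 to 36 in the others.

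**Figure D5:**
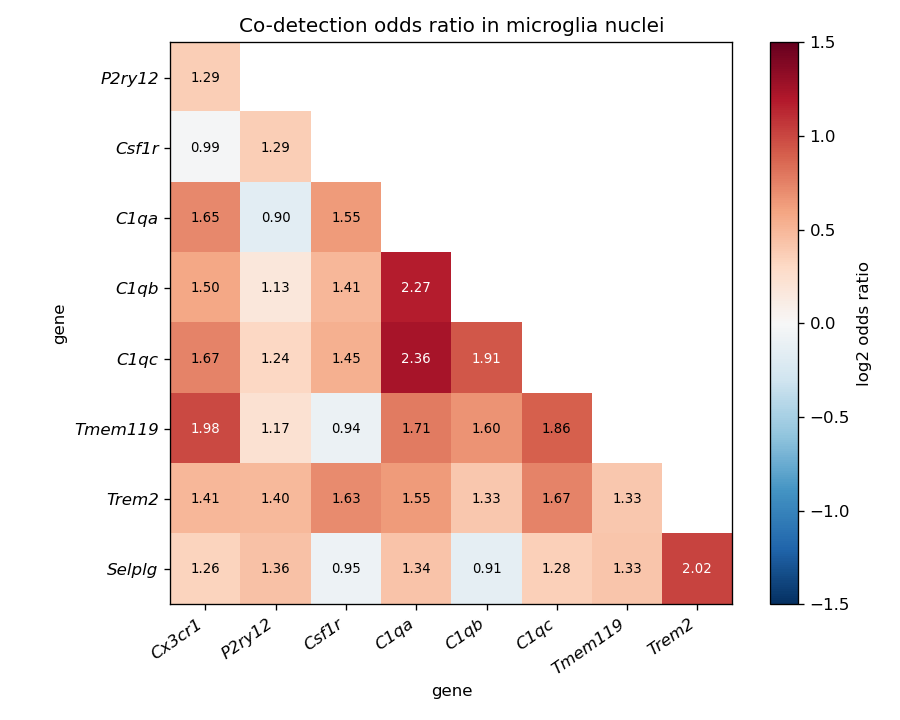
Mantel-Haenszel odds ratio of co-detection for each pair of the 9 genes in 993 microglia nuclei, over library and depth strata (colour is the log2 odds ratio, numbers are odds ratios). Pairs of C1q genes, Trem2 with Selplg and Cx3cr1 with Tmem119 are the reddest, at 1.91 to 2.36, and 5 pairs are below 1.

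The ligands of the receptors were higher in other cells than in microglia. *Cx3cl1*, the ligand of Cx3cr1, was highest in neurons with 74.1 ± 18.3 CPM (SD, n = 10) against 16.6 ± 8.04 in microglia. *Csf1* was highest in oligodendrocytes (89.1 ± 21.2 CPM, n = 10) and *Il34*, the other ligand of Csf1r, in fibroblasts (214 ± 101, n = 8) and endothelial cells (86.3 ± 52.0, n = 7), with 7.30 in neurons. *C4b*, a complement factor that C1q activates, had 20.8 ± 6.98 CPM in astrocytes, while *C3* reached at most 4.69 in any type and 1 UMI in microglia. *C1ra* and *C1s1*, the proteases that pair with C1q, had 0 UMIs in microglia.

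Partners on the microglia themselves were also measured. *Tyrobp*, the adaptor of Trem2, had 43.1 to 667 CPM in male and 762 to 1053 CPM in female libraries, with male library 2 the highest male. *Tgfb1* and its receptor *Tgfbr1* had 251 ± 90.2 and 2413 ± 307 CPM in microglia (SD, n = 10). Of the 18 ligands and partners, 10 were tested in microglia, and 1, *Itgam*, was called lower in female libraries by edgeR, with none higher, against 6.99% of all genes called in either direction. *Itgam*, a chain of complement receptor 3, had 358 to 656 CPM in male libraries and 0 UMIs in the 6 female libraries, where 3 counts over the group would be 2.83 CPM. It is 1 of the genes counted in a single group, so that level and annotation cannot be told apart.

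Other lists moved partly alike. Of 20 further homeostatic genes, all tested, 3 were higher in female libraries and 2 lower, against 4.01% higher over all genes. *Gpr34*, a lysophospholipid receptor, was higher by 1.23 ± 0.31 (adjusted p 0.0280), *Fcrls* by 1.01 ± 0.26 (0.0307) and *Sparc* by 1.26 ± 0.34 (0.0419), all by edgeR. The 2 lower ones were *Itgam*, in both lists, and *Irf8*, a transcription factor of myeloid cells, which also had 0 UMIs in female libraries and 201 to 449 CPM in male libraries. The list had a median of 0.56, and 16 of 20 genes were above 0, against 2155 of the 4910 genes tested. Of 20 genes of activated microglia, 19 were in the matrix and 9 were tested. Of these, 2 were higher, against 4.01% higher over all genes. They were *Fth1*, the ferritin heavy chain, by 1.51 ± 0.32 (edgeR's adjusted p 0.00852) and *Cd9* by 1.17 ± 0.30 (0.0310). The median of the tested genes was 1.17, above the members' 0.89, and 8 of 9 were above 0. *Ctsd* was lower, with 19.0 to 64.1 CPM in female against 269 to 1473 CPM in male libraries, and had 133 UMIs in all female nuclei against 7366 in male. For *Irf8* and *Ctsd*, as for *Itgam*, level and annotation cannot be told apart. Of 12 early response genes 3 were tested and none passed (estimates 1.25 to 1.59), and of 10 border macrophage genes 1 was tested, *Stab1*, at 0.05 ± 0.24.

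Markers of other cell types were also counted in microglia nuclei. The 6 neuron markers summed to 306 to 4281 CPM in male (median 3188) and 419 to 2717 in female libraries (median 766), with overlap. All 5 tested had estimates below 0 and none passed in edgeR. Male library 2 had the lowest neuron sum of all, 306 CPM. Astrocyte markers summed to 383 to 1323 CPM in male and 290 to 824 CPM in female libraries. Their part in the members' levels was not tested beyond the fit without marked nuclei above.

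Some members also passed in neurons, at low levels. In neurons 5 members were tested, and *Cx3cr1* (0.97 ± 0.24, adjusted p 0.0136), *C1qa* (1.55 ± 0.41, 0.0216) and *C1qb* (1.46 ± 0.42, 0.0329) were higher in female libraries by edgeR, 3 of 5 against 15.2% of 15278 genes in either direction and 6.77% higher. Among genes counted in both groups, 676 of 13999 passed in neurons, 390 of them higher. The low-count filter lets a gene enter through 1 group alone. *C1qa* and *C1qb* averaged 1.33 and 1.24 CPM in male against 3.63 and 3.37 in female neurons (TMM scaling). The 3 of 5 is thus a description of members shaped by the filter. *Cx3cr1* had 6.94 to 12.3 CPM in male and 14.9 to 24.4 CPM in female libraries, without overlap. The share of all genes without overlap was not counted in neurons, so no background stands beside this. Neuron nuclei with 4 or more members were 15 of 3934 in female and 10 of 6476 in male libraries. Their part in these levels was not tested. *C1qa* in neurons had 0.804 to 2.27 CPM in male and 1.38 to 5.42 CPM in female libraries, so the groups overlapped. *P2ry12* (0.17 ± 0.34) and *Selplg* (-0.06 ± 0.22) did not pass there. In astrocytes *Cx3cr1* (0.47 ± 0.34) and *P2ry12* (-0.34 ± 0.36) were tested and neither passed, against 14.0% of 9804 genes in either direction and 8.09% higher. In oligodendrocytes no member had enough UMIs to be tested, while 12.8% of 6616 genes passed and 8.99% were higher.

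Over 73 sums of library and cell type, the genes whose log2(CPM + 1) was most like the mean of the 9 members, among 15588 genes, were *Csf2rb*, *Gm40645*, *Cd200r1*, *Gm47754*, *Was*, *Tlr7*, *Susd3*, *Fcgr2b*, *Plcb2* and *Pik3cg* (Pearson's r 0.971 to 0.976). The sums share libraries and depth, so r is a description of the pattern across cell types. *Csf2rb*, a chain of cytokine receptors, had 60.9 ± 21.6 CPM in microglia (SD, n = 10) and *Tlr7*, a receptor of single-stranded RNA, 196 ± 49.98.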

How the data were processed

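Nuclei of PVT punches were sequenced in 10 libraries (10x Genomics 3′ v3). The authors aligned and counted reads with Cell Ranger against mm10 (version 6.1.1 and build per the submitters' processing notes; the study's methods name another version), and the deposited matrix holds raw UMI counts per gene and nucleus. The deposited metadata give each nucleus its library, sex, cluster name and mitochondrial percent, computed by the authors, whose filters were at least 200 genes and at most 5% mitochondrial. The sources used here name no strand setting. Mitochondrial genes hold 0 UMIs in male nuclei. In the metadata, 21 further columns were not used.

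Here UMIs were summed per library and cell type, and types with under 10 nuclei in a library were left out. CPM is per 1000000 of these UMIs. Female and male libraries were compared with the quasi-likelihood test of edgeR 4.0.16 under R 4.3.3. Low counts were removed by filterByExpr, with TMM scaling, and tests were two-sided. Adjusted p-values are Benjamini-Hochberg over all genes tested, with a threshold of 0.05. DESeq2 1.42.0 was an alternative. The edgeR test was checked on simulated counts with the same spread parameter for every gene and no library set apart. That check does not cover a group such as the male libraries here. SDs are over libraries. The edgeR test gives no SE, so each SE is the size of the estimate divided by the square root of the test's F. That F uses a spread between libraries that is partly shared across genes. Total depth was 5119927 to 55956635 UMIs per library. Shares were also taken after thinning to 1000 UMIs (950 of 993 microglia nuclei, fixed seed). Odds ratios are Mantel-Haenszel estimates over library and depth strata. Python 3.11.15, numpy 2.4.6, scipy 1.17.1 and pandas 2.3.3 were used. Gene positions are from GENCODE vM21, lengths and promoters from RefSeq. The members, lists and tests were chosen with earlier results of these data known. Named were the 9 members, the ligands and partners, list genes called in microglia (at most 3 per direction), and the 10 genes most like the members' mean. Doublets had been removed by the authors, per their methods, and no caller was run. A result on 1 gene of the lists is not reported here. Floors cover counting error only.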

Additional observations from a re-analysis of the deposited data

Results flagged for a closer look

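In microglia nuclei, male and female groups of libraries were examined by Dixon's ratio (gap over range), 42 groups in all. A library stood apart in 5 of them, where chance marks about 1 in 20. All 5 were male groups, so the rate among male groups alone is higher. In each, the library apart from the other 3 male libraries was male library 2. Its *Cx3cr1* was 3592 CPM against 1019 in the nearest male library, its *C1qa* 3279 against 473, its *C1qb* 2582 against 612 and its *Tyrobp* 667 against 137. The summed CPM of the 9 members was 18661 against 6471. These groups share nuclei and are not independent. No female library stood apart in these measures.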

How the results depend on the processing

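The number of genes called in microglia (343) moved with the processing more than the direction of the members. It was 1705 with no filter, 94 among genes counted in both groups, 102 in nuclei under 1% mitochondrial, 112 in thinned nuclei, 145 with the replicate block, 191 in nuclei at 1% or more (chosen after seeing the data), and 216 to 1072 with a library left out. In neurons (2316) it was 4455 with no filter, 676 among genes counted in both groups, 826 thinned, and 1991 to 3959 with a library left out. In astrocytes (1375) it was 3336, 639 and 593, with 91 in nuclei under 1% mitochondrial, 747 with the replicate block and 924 to 3008 with a library left out. In oligodendrocytes (848) it was 2625, 440, 151, 77, 288 and 521 to 1294 in that order. The causes were not tested, beyond the fewer genes tested in thinned or selected nuclei. Labels give replicate numbers in both groups. In microglia, same-numbered libraries had r of -0.49 to 0.08 and differently numbered ones -0.47 to 0.42. These few values cannot tell whether the numbers pair libraries, and the main fit did not use them. With the replicate block (145 genes called in microglia) no member passed. Male library 2 gave the highest count when left out in all 4 cell types. Of 185 estimates of members under alternatives, 1 reversed: *Selplg* at -0.00185 with the mitochondrial covariate. *Trem2* lost its call in 13 of 21. DESeq2 gave *Cx3cr1* and the C1q genes, 4 of 9 members, neither a p nor an adjusted p, so it holds no test of them. It called *Trem2* (DESeq2's adjusted p 0.00731). The summed CPM of members in female libraries was 18501 ± 2250.5 (SD, n = 6) and 15679 in nuclei under 1% mitochondrial. Shares with a UMI fell most when thinned, to 40.4% for *Tmem119*.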

Other observations

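A few nuclei stood apart inside the microglia cluster and were named after their values were seen. In female library 4, 1 nucleus held all 250 UMIs of *S100a8* of its microglia and none of the 9 members. *S100a8* and *S100a9* are abundant in neutrophils. In male library 2, 26 of 29 UMIs of *Plac8*, a leukocyte gene, lay in 1 nucleus with 3 of the 9 members. In female library 5, 783 of 1152 UMIs of *Apoe*, a lipid carrier of astrocytes and activated microglia, lay in 1 nucleus of 10447 UMIs with all 9 members, and the library's *Apoe* was 4100 CPM against 346 to 1806 in the other female libraries.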
